A study of Mus musculus with 20 samples.

Results

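NMDA receptors are glutamate-gated channels built from obligatory GluN1 subunits, encoded by Grin1, together with GluN2 subunits (Grin2a, Grin2b, Grin2c and Grin2d) or GluN3 subunits (Grin3a and Grin3b). GluN1 and GluN3 bind glycine or D-serine, GluN2 binds glutamate, and the GluN2 type sets how fast the channel closes and how strongly magnesium blocks it. Ketamine blocks the open channel, whereas isoflurane, a volatile anaesthetic, acts on many channels. The 7 genes were taken by symbol from the 32285 genes of the mouse hippocampus libraries. Their unique molecular identifiers (UMIs, each standing for a captured RNA molecule) were summed per mouse and per class of nucleus.

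Single nuclei of the hippocampus were profiled from 20 male mice aged 4.5 to 5.5 months. APP/PS1 mice carry the APPSwe and PS1ΔE9 transgenes, and the WT mice were their littermates. The labels place 6 WT and 3 APP/PS1 mice in the awake groups, 3 WT and 4 APP/PS1 mice under isoflurane (labelled Isofluran, 5% then 1.5%), and 2 WT and 2 APP/PS1 mice under ketamine. The ketamine mice received 150 mg/kg ketamine with 12 mg/kg of the sedative xylazine, so that the effects of these drugs cannot be told apart, and anaesthesia lasted 3 h. The series' design text gives other sizes for the awake and isoflurane groups, and the labels were followed here.

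After filtering, 149933 nuclei remained, 4563 to 9931 per mouse. The deposited libraries held 9243992 to 25394891 UMIs each, with a median of 1235 to 3169 per nucleus, and a pair of libraries shared at most 35 cell barcodes. Classes were named from marker genes and are written here by the type that their nuclei resemble; all markers of a class were above their level over all nuclei, except 1 of 7 in the CA3-like class and 2 of 8 in the subicular and cortical class. Mice 1 to 4 stood apart, with mitochondrial shares of 0.939% to 1.78% against 0.0353% to 0.336% in the other mice. The mouse numbers fall into runs, 1 to 4, 10 to 13, 14 to 17, 18 to 20 and 25 to 29. The first 4 runs each hold awake and isoflurane mice, while the ketamine mice, 25 to 28, share a run with awake mouse 29 alone. The labels do not say what a run stands for. The methods speak of tissue batches in which the groups were mixed. Runs 1 to 4 and 14 to 17 hold 1 mouse of each awake and isoflurane group by genotype, and the other runs do not, so that whether the runs are those batches is not settled here.

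The genotype labels were checked on Prnp, since the transgenes of this line are driven by prion promoter sequences. Over all nuclei Prnp stood at 44.7 to 199 CPM in libraries labelled WT (median 75.4, n = 11) and 67.5 to 416 CPM in those labelled APP/PS1 (median 208, n = 9). CPM are the UMIs of a gene per 1000000 UMIs of the class in that mouse, scaled between mice with TMM factors. The libraries labelled APP/PS1 of mice 11, 17 and 20 had 67.5, 75.7 and 103 CPM, within the WT range, and the library labelled WT of mouse 14 had the highest WT value. The state of the mice was checked on activity genes in CA1-like nuclei. Arc was lower under isoflurane (log2 fold change -2.40, SE 0.28, adjusted p = 0.000208 from edgeR) and under ketamine (-2.91, SE 0.43, adjusted p = 0.000897), whereas Fos fell under isoflurane (-2.88, SE 0.52, adjusted p = 0.00335) and did not pass under ketamine (-0.10, SE 0.58, adjusted p = 0.930).

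Grin1, Grin2a and Grin2b were highest in CA1-like nuclei, Grin2c in astrocytes, Grin2d in GABAergic interneurons and Grin3a in oligodendrocyte precursors (OPC). Differences in level between classes are described without a test. Grin1, the obligatory subunit (GRCm38 chr2:25291181-25319187, minus strand), had a median level of 572 CPM in CA1 (range 335 to 816 over 20 mice), 504 in dentate gyrus (DG) granule nuclei (285 to 826) and 345 in interneurons (191 to 533). Between them stood the CA3 class (417 CPM, 292 to 547, n = 16, without mice 1 to 4) and the subicular and cortical excitatory class (417 CPM, 260.4 to 661). CA1 lay above DG in 17 of 20 mice and DG above the subicular class in 19 of 20 mice, whereas the subicular class exceeded CA3 in only 4 of 16 mice, against the order of their medians. In glia Grin1 had median levels of 14.7 CPM in oligodendrocytes to 43.2 in OPC. The small mural sums (542568 UMIs in all) had medians of 244 CPM of Grin1, 1609 of Grin2a and 642 of Grin2b. Endothelial nuclei had a median of 592 CPM of Grin2a (0 to 1394, n = 18) and 301 CPM when pooled over mice. Mouse 10 alone held 849609 of their 1695394 UMIs. Free RNA of neurons may remain in such sums, and its part was not tested.

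Grin2a, whose subunit gives fast-closing receptors (chr16:9567898-9995560, minus strand), had a median level of 4338 CPM in CA1 (1681 to 5279) and 3908 in DG (2086 to 4822), CA1 being the higher in 13 of 20 mice. CA3 followed at 2855 CPM (2546 to 3312), below DG in 16 of 16 mice. Among interneurons its level ran from 3044 CPM in the Lamp5 class (1621 to 4792) through 1230 in Sst, 587 in Pvalb and 419 in Vip to 229 in Cck (88.2 to 412). Lamp5 was above Sst in 20 of 20 mice and Sst above Pvalb in 20 of 20 mice. Some of these sums were small, with as few as 10 nuclei in a mouse for Sst and 13 for Cck.

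Grin2b, whose subunit closes more slowly and predominates early in life (chr6:135713233-136173511, minus strand), also led in CA1, with 2129 CPM (1400 to 3370), above CA3 in 16 of 16 mice. Its order among interneurons differed from that of Grin2a: Vip had the highest median level, 1752 CPM (1195 to 2452), above Pvalb in 20 of 20 mice, and Lamp5 the lowest, 859 (663 to 1458). Lamp5 was below Sst (933 CPM) in only 11 of 20 mice. Astrocytes held 287 CPM of Grin2b (155 to 361). Levels of different genes may depend on gene length, and their order changed with the length used. In CA1 the level per kilobase of gene span was 20.4 CPM for Grin1, 10.1 for Grin2a and 4.63 for Grin2b, and per kilobase of exon 58.9, 242 and 85.7. Intronic reads were counted, and these genes span 28.0, 428 and 460.3 kb.

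Grin2c, best known from cerebellar granule cells (chr11:115249169-115267243, minus strand), was found mainly in astrocytes, at 267 CPM (194 to 458), with 6079 of its 6878 UMIs. Astrocytes were above the next class, fibroblasts (4.21 CPM), in 17 of 17 mice, and the neuron classes had median levels of 0 to 1.10 CPM. The 7 genes were left out of clustering, so that they did not define the classes. Grin2d, whose subunit closes very slowly (chr7:45831883-45878378, minus strand), stood at 43.6 CPM in interneurons (32.8 to 57.2), above the subicular and cortical class in 20 of 20 mice. Its median level was highest in Vip (72.6 CPM, 30.9 to 134), above Cck in 13 of 20 mice, and lowest in Pvalb (35.5 CPM, 12.3 to 56.5). Sst, at 35.8 CPM, exceeded Pvalb in only 8 of 20 mice, against the order of their medians.

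Grin3a, whose subunit lowers calcium entry through the receptor (chr4:49661611-49845744, minus strand), had its highest level in OPC, 505 CPM (250.2 to 768). OPC lay above all interneurons together in 20 of 20 mice. Grin3a made up a median of 77.0% (55.7% to 87.7) of the UMIs of the 7 genes in OPC, a share not adjusted for gene length. Sst interneurons followed with 425 CPM (240.1 to 685), a range that overlapped that of OPC. Sst lay above Vip (216) in 18 of 20 mice. Astrocytes had 115 CPM (60.7 to 187), and CA1, DG and CA3 had 47.6, 29.6 and 10.2. Grin3b (chr10:79970715-79977190, plus strand) gave 178 UMIs of 315959336 in all nuclei, a median level of 3.86 CPM in OPC (0 to 9.27) and at most 0.901 in the other classes. Grin1, Grin2b, Grin2d and Grin3b overlap counted genes on the opposite strand, and Grin3a holds Ppp3r2 on its own strand. How reads in these stretches were assigned was not examined.

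**Figure D1:**
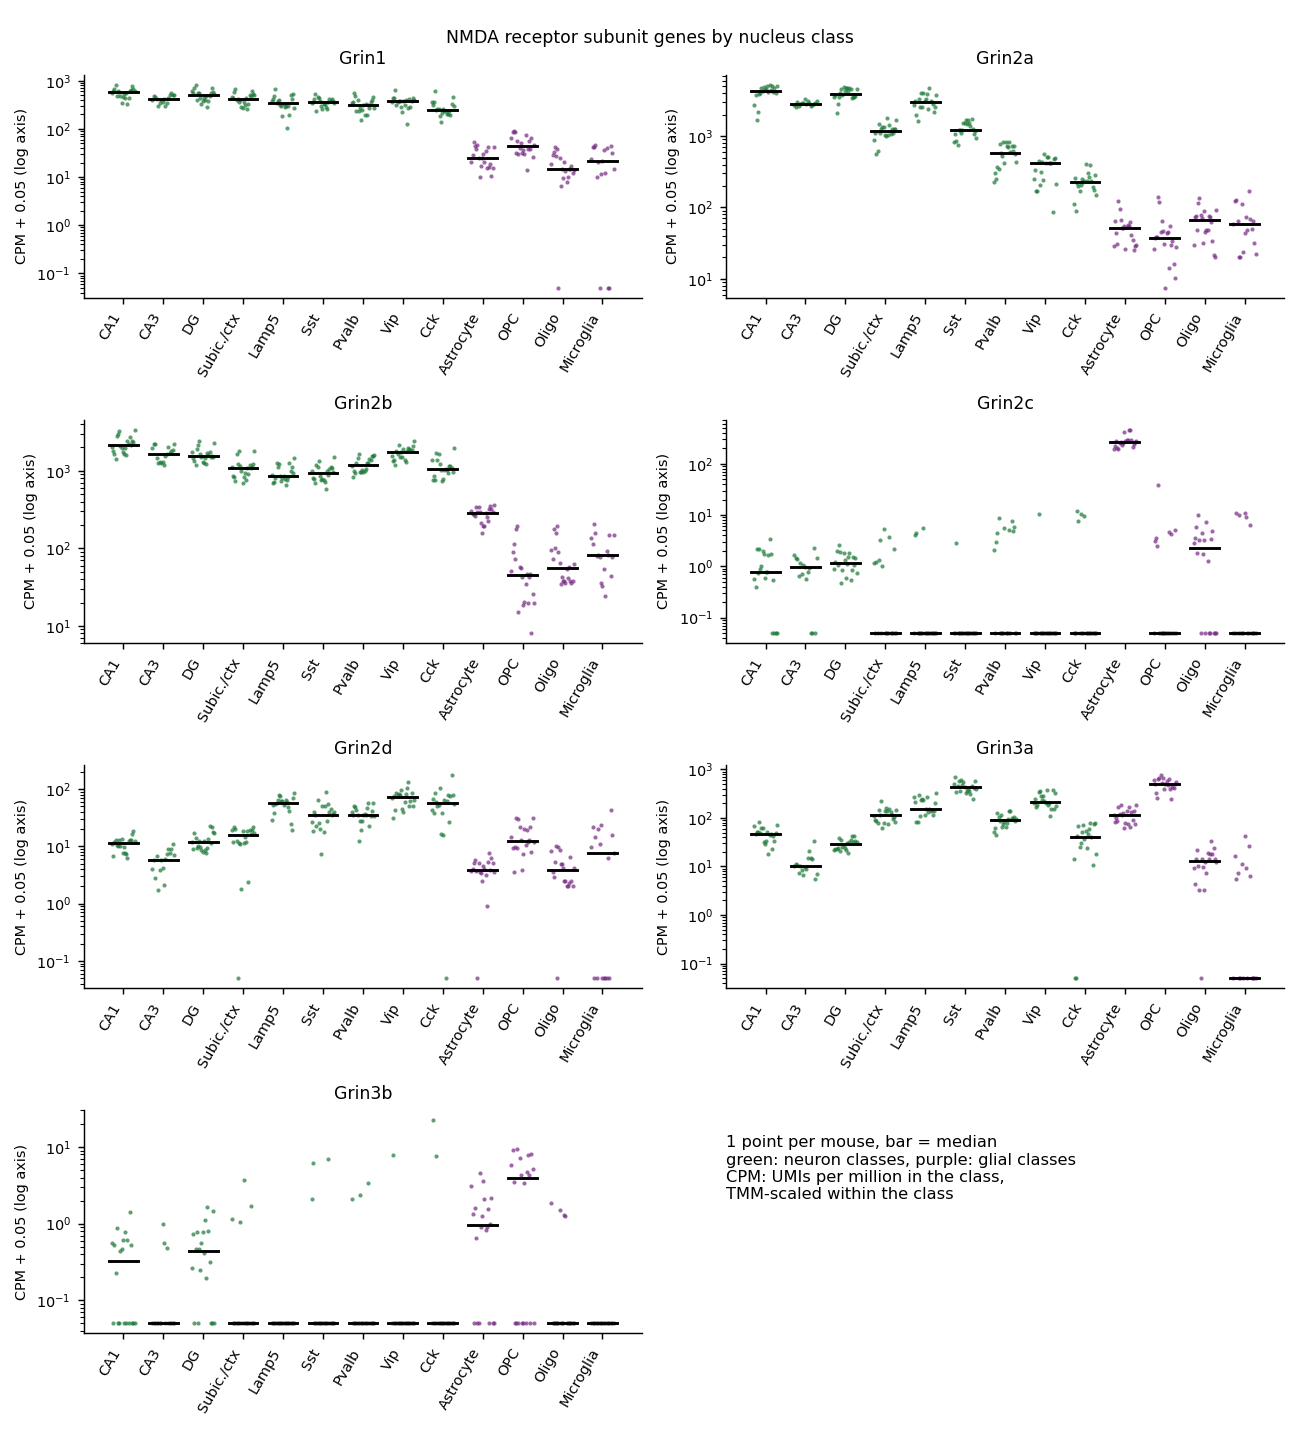
Level of each NMDA receptor subunit gene (CPM plus 0.05, log axis) in the nucleus classes, with 1 point per mouse and a bar at the median. Grin2c is highest in astrocytes (267 CPM) and Grin3a in OPC (505 CPM) and Sst interneurons (425 CPM).

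The RefSeq promoter table (GRCm38.p6) matched 4 of the 7 genes, Grin1, Grin2c, Grin2d and Grin3b. The 250 bases before the start are shown for Grin1, present in all neuron classes, and for Grin2c, found mainly in astrocytes. Capitals mark matches on either strand to GGGCGG (GC box) or TGACG (part of the cyclic AMP response element), and both sequences run 5′ to 3′ on the gene's strand, which is the minus strand. They lie at chr2:25319188-25319437 and chr11:115267244-115267493.
Grin1: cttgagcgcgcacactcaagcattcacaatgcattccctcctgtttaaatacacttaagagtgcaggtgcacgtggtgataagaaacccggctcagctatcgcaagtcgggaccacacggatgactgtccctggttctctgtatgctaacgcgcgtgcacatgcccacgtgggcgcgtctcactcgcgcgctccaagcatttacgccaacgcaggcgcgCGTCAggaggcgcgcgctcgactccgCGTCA
Grin2c: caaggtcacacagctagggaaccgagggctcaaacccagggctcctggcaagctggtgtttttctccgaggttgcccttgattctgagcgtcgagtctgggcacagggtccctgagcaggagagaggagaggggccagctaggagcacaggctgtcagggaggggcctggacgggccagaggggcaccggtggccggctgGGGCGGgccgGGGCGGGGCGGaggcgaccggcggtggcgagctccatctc
Grin2c held 3 GC boxes, 50, 40 and 35 bases before the start, the last 2 overlapping, and no TGACG. Grin1 held TGACG at 31 and 5 bases before the start, and its 1 GC box began 8 bases after it, outside the bases shown. Of all 32851 promoters of 300 bases, 35.7% held a GC box and 20.8% held TGACG. The full element TGACGTCA was in 1.79% of promoters and in none of the 4. E-boxes (CANNTG), in 72.3% of promoters, numbered 4 in Grin1, 2 in Grin3b, 1 in Grin2d and 0 in Grin2c.

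Across the 14 main classes, Grin1, Grin2a and Grin2b varied together (Pearson r of log2 class means 0.92 to 0.94, given without a test, since the classes share libraries). Among 15525 genes the patterns most like each subunit over these classes were those of Celsr3, Unc13a and Dlgap2 (r 0.98 to 0.98) for Grin1, Kcnip4, Gm12027 and Abcc8 (r 0.98 to 0.99) for Grin2a and Pigk, St6galnac5 and Gria1 (r 0.96 to 0.99) for Grin2b. For Grin2c they were Gm35552, Thbs4 and Acsbg1 (r 0.96 to 0.99), for Grin2d Tmx4, Gm45829 and Osbpl3 (r 0.80 to 0.83) and for Grin3a Gm15584, Brinp3 and Astn2 (r 0.91 to 0.93).

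Treatment and genotype were tested with edgeR on the sums per mouse in the 10 classes with enough mice. Of the 7 genes, 6 passed the filter on low counts in at least 1 class, giving 43 gene-class pairs; Grin3b passed in none. Adjusted p-values run over all genes of a class. The same fit with the runs of mouse numbers as a block is given where it changes a call.

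Isoflurane lowered 2 of the 43 pairs and raised 0, where 3.48% of all gene-class pairs were called. An unadjusted p under 0.05 was found for 9 pairs. The share of all pairs at that threshold is not given, and these 9 are not read as a result. With the runs as a block 8 pairs passed, 3 higher and 5 lower, where 6.16% of all pairs were called. The median log2 fold change was 0.05 over the 43 pairs and 0.01 over all pairs.

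Grin2a in the subicular and cortical class fell under isoflurane. The 9 awake mice had 889 to 1775 CPM (median 1356) and the 7 isoflurane mice 561 to 1102 CPM (median 1035). The groups overlapped through awake mouse 1 alone (889 CPM), and every isoflurane mouse lay below every awake mouse of its run in 4 of 4 runs. The log2 fold change was -0.60 (SE 0.16, adjusted p = 0.0368) in edgeR, and -0.59 (SE 0.10, adjusted p = 0.000436) with the block. The adjusted p was 0.000317 to 0.206 over 33 alternatives, and leaving out any one of mice 3, 4, 10, 13, 14, 15 or 17 ended the call. Snap25, a synaptic gene of all neurons, had median levels of 1403 CPM awake, 948 under isoflurane and 1175 under ketamine in this class; its part in the result was not tested. Grin2b in the same class had 852 to 1822 CPM (median 1125) awake and 685 to 1229 CPM (median 825) under isoflurane, a difference of -0.53 (SE 0.17, adjusted p = 0.0793) that missed the threshold.

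In CA1 and in interneurons Grin2a passed only with the block. In CA1 it had 2769 to 5279 CPM (median 4813) awake and 1681 to 4637 CPM (median 4169) under isoflurane. The lowest 3 values were those of isoflurane mice 3 and 4 and awake mouse 1, of the run with the high mitochondrial share. The log2 fold change was -0.26 (SE 0.20, adjusted p = 0.577), and -0.37 (SE 0.10, adjusted p = 0.0256) with the block, lower in 4 of 4 runs. In interneurons the awake mice had 931 to 1965 CPM (median 1432) and the isoflurane mice 687 to 1525 CPM (median 1224). The change there was -0.26 (SE 0.19, adjusted p = 0.617), and -0.36 (SE 0.10, adjusted p = 0.0257) with the block, lower in 4 of 4 runs.

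Grin1 was higher under isoflurane once mice were compared within runs. In CA1 the awake mice had 335 to 611 CPM (median 482) and the isoflurane mice 436 to 816 CPM (median 559), and all isoflurane mice lay above all awake mice in 4 of 4 runs. The log2 fold change was 0.23 (SE 0.16, adjusted p = 0.515) without and 0.36 (SE 0.09, adjusted p = 0.0149) with the block. In DG the awake mice had 285 to 598 CPM (median 437) and the isoflurane mice 382 to 826 CPM (median 473). The change was 0.24 (SE 0.19, adjusted p = 0.616) without and 0.35 (SE 0.10, adjusted p = 0.0440) with the block, higher in 4 of 4 runs. In interneurons Grin1 was also higher in 4 of 4 runs, and the blocked change was 0.33 (SE 0.10, adjusted p = 0.0506).

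Astrocytes had little Grin1, 9.82 to 41.4 CPM (median 20.9) awake and 24.3 to 53.2 CPM (median 42.5) under isoflurane, and all isoflurane mice were above all awake mice in 4 of 4 runs. The change was 0.67 (SE 0.24, adjusted p = 0.0984), and 0.87 (SE 0.19, adjusted p = 0.00397) with the block. Slc17a7, the vesicular glutamate transporter of excitatory neurons, had median levels of 27.8 CPM awake, 41.6 under isoflurane and 16.9 under ketamine in the astrocyte sums. Snap25 had 106 CPM awake, 113 under isoflurane and 60.7 under ketamine there, and Rbfox3, a marker of neuronal nuclei, 19.7 CPM awake, 20.4 under isoflurane and 13.0 under ketamine. Their part in the result was not tested.

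**Figure D2:**
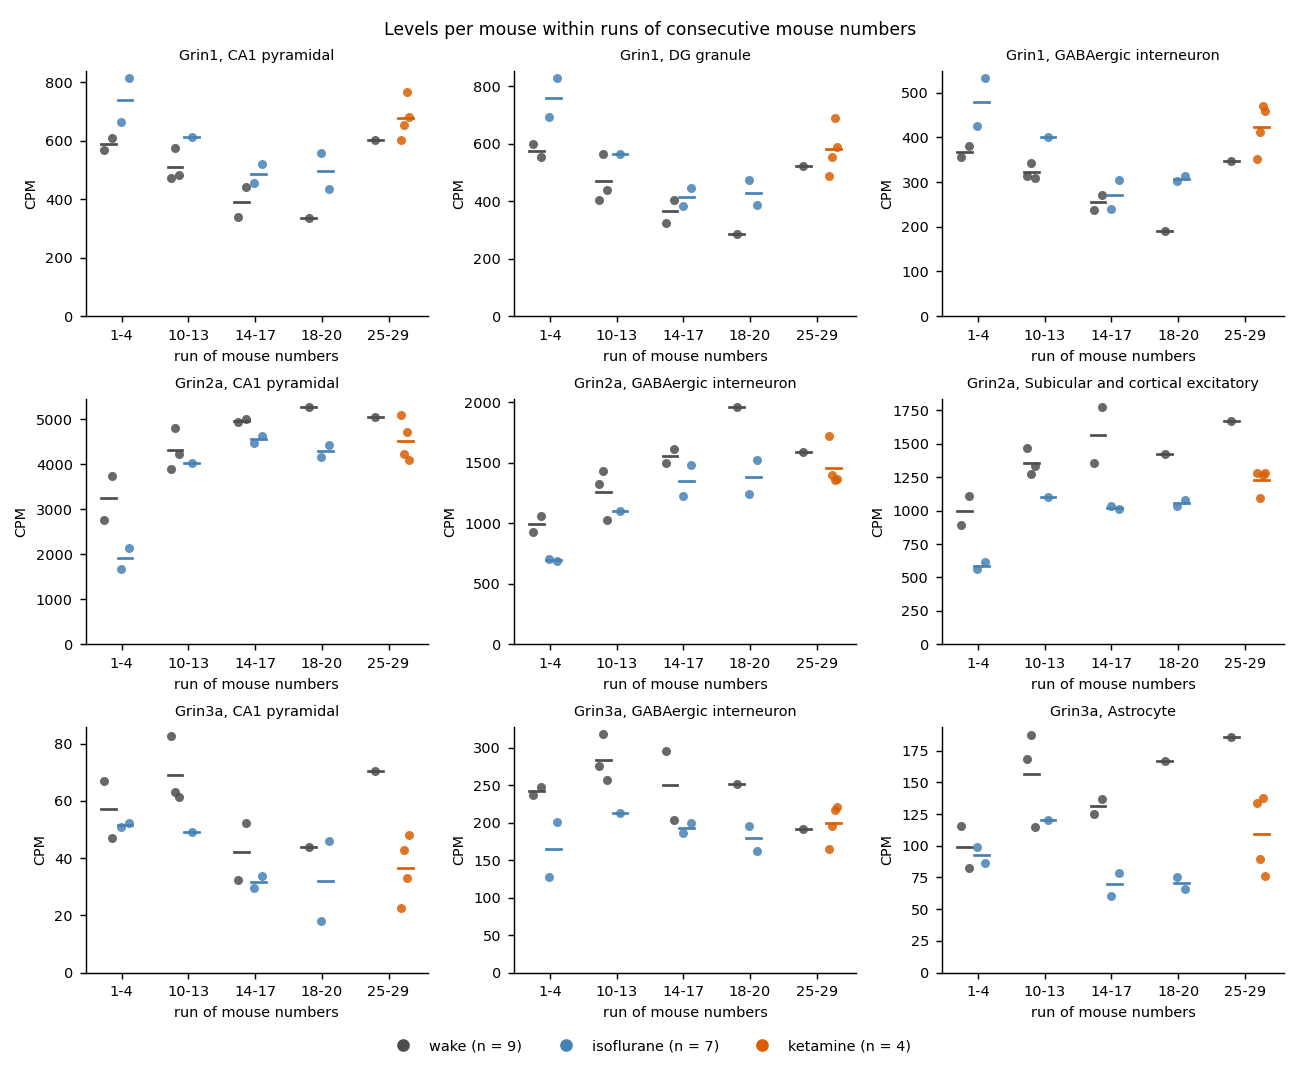
Level per mouse (CPM) of Grin1, Grin2a and Grin3a in selected classes, by run of consecutive mouse numbers, with a bar at the mean of each treatment in a run. In CA1 Grin1 is higher under isoflurane in 4 of 4 runs and Grin2a lower in 4 of 4 runs, and Grin2a is lowest in the run of mice 1 to 4.

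Grin3a in astrocytes was the other pair that fell. The awake mice had 82.8 to 187 CPM (median 137) and the isoflurane mice 60.7 to 120.0 CPM (median 78.4), and the groups overlapped. The log2 fold change was -0.72 (SE 0.20, adjusted p = 0.0265) in edgeR, and -0.58 (SE 0.18, adjusted p = 0.0394) with the block, lower in 4 of 4 runs. The adjusted p was 0.00998 to 0.117 over 33 alternatives, and leaving out any one of mice 4, 10, 15, 16, 17, 18 or 20 ended the call. In interneurons the awake mice had 192 to 318 CPM (median 251) and the isoflurane mice 128 to 212 CPM (median 195), and all isoflurane mice lay below all awake mice in 4 of 4 runs. The change there was -0.46 (SE 0.12, adjusted p = 0.0545), and -0.44 (SE 0.11, adjusted p = 0.0166) with the block. In OPC, the class with most Grin3a, awake mice had 507 to 768 CPM (median 605) and isoflurane mice 263 to 658 CPM (median 403), a difference of -0.47 (SE 0.16, adjusted p = 0.245).

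Grin2c did not pass in astrocytes, with 194 to 458 CPM (median 255) awake and 199 to 448 CPM (median 275) under isoflurane, a difference of 0.25 (SE 0.19, adjusted p = 0.516). Grin2d had log2 fold changes of 0.06 to 0.23 in the 5 neuron classes, none past the threshold.

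Ketamine raised 1 of the 43 pairs and lowered 0, where 7.59% of all pairs were called. An unadjusted p under 0.05 was found for 14 pairs. The share of all pairs at that threshold is not given, and these 14 are not read as a result. With the runs as a block, which leaves awake mouse 29 beside the 4 ketamine mice, edgeR called 0 pairs (background 0.052%). Without the block DESeq2 called 1 pair. The median log2 fold change was -0.08 over the 43 pairs and -0.04 over all pairs.

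The pair called was Grin2d in DG granule nuclei. Ketamine mice 25 to 28 had 22.3, 11.5, 21.4 and 17.7 CPM, and the 9 awake mice 8.52 to 17.3 CPM (median 9.15). The highest awake value, 17.3 CPM, was that of mouse 29, which lay above 1 and below 3 of the ketamine mice. The log2 fold change was 0.86 (SE 0.25, adjusted p = 0.0296) in edgeR, and 0.21 (SE 0.41, adjusted p = 0.943) with the block. The adjusted p was 0.0145 to 0.943 over 33 alternatives, and leaving out any one of mice 2, 17, 25, 27 or 28 ended the call. Beyond the comparison with mouse 29, treatment and run cannot be told apart here. In the sums over all nuclei, where fewer nuclei of a class and less RNA per nucleus cannot be told apart, Grin2d was also higher under ketamine, with a log2 fold change of 0.56 (SE 0.17, adjusted p = 0.0434). Mouse 29 had 15.8 CPM there, above the other awake mice (10.4 to 13.4) and within the ketamine range (13.7 to 20.5). Blocked by runs, the change was 0.25 (SE 0.32, adjusted p = 0.921), and the call was lost. Of 31 alternatives 17 ended it (adjusted p 0.0164 to 0.921 over all of them), among them no filter on low counts, scaling by library size and leaving out any one of mice 1, 2, 10, 13, 14, 17, 19, 25, 26, 27 or 28.

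In the pyramidal classes Grin2d did not pass. In CA1 the ketamine mice had 13.0, 13.0, 16.1 and 18.6 CPM and the awake mice 6.20 to 13.2 CPM (median 10.5), with mouse 29 at 12.5, a difference of 0.65 (SE 0.23, adjusted p = 0.0772). In CA3 the ketamine mice had 8.82, 7.62, 8.89 and 11.1 CPM, all above the 7 awake mice with 1.67 to 7.05 CPM (median 4.20), a difference of 1.04 (SE 0.47, adjusted p = 0.222). In interneurons, where Grin2d is highest, the ketamine mice had 32.8, 42.3, 57.2 and 56.2 CPM and the awake mice 33.6 to 53.6 CPM (median 44.7), a difference of 0.14 (SE 0.15, adjusted p = 0.613).

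Grin1 had log2 fold changes of 0.35 to 0.45 under ketamine in the 5 neuron classes and passed in none (adjusted p 0.130 to 0.294). In CA1 the ketamine mice had 605, 656, 766 and 682 CPM, all above mouse 29 with 602. Mouse 29 lay below 4 of 4 ketamine mice in interneurons, 3 of 4 in DG, 2 of 4 in CA3 and 2 of 4 in the subicular class, where it had 501 CPM and the ketamine mice 470.5 to 602. With mice 1 to 4 set apart as a block, 8 of the 38 pairs in the 9 classes that these mice enter passed, 5 higher and 3 lower, where 9.64% of all pairs were called. Among them was Grin1 in CA1, at 0.56 (SE 0.15, adjusted p = 0.0172), in DG, at 0.51 (SE 0.16, adjusted p = 0.0387), in interneurons, at 0.58 (SE 0.15, adjusted p = 0.0225), and in the subicular class, at 0.60 (SE 0.16, adjusted p = 0.0309). Grin3a in OPC was 250.2, 428, 410.1 and 502 CPM in the ketamine mice, all below the awake range given above. The difference was -0.60 (SE 0.20, adjusted p = 0.124), and -0.69 (SE 0.18, adjusted p = 0.0355) with mice 1 to 4 as a block. The other pairs lower in that fit were Grin2a in astrocytes and in DG. In astrocytes Grin2a was 41.3, 34.9, 25.0 and 28.6 CPM under ketamine against 28.9 to 125 CPM (median 52.4) awake, with mouse 29 at 29.6, a difference of -1.07 (SE 0.30, adjusted p = 0.0306) in that fit and -0.94 (SE 0.33, adjusted p = 0.0786) without a block. In DG it was 3485, 3549, 3517 and 3694 CPM under ketamine against 3543 to 4822 CPM (median 4598) awake, with mouse 29 at 4623, a difference of -0.38 (SE 0.12, adjusted p = 0.0497) in that fit and -0.24 (SE 0.18, adjusted p = 0.365) without a block. Neither passed with the runs as a block (adjusted p = 0.930 and 0.705). The remaining pair was Grin2d in DG, at 0.95 (SE 0.24, adjusted p = 0.0145). A block of mice 1 to 4 does not separate ketamine from the run of mice 25 to 29. With the runs as a block, as given above, no pair passed. For Grin1, mouse 29 lay above the other awake mice in CA3 (505 against 292 to 463 CPM) and in the subicular class (501 against 260.4 to 459.7 CPM). In CA1, DG and interneurons it lay within their range.

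**Figure D3:**
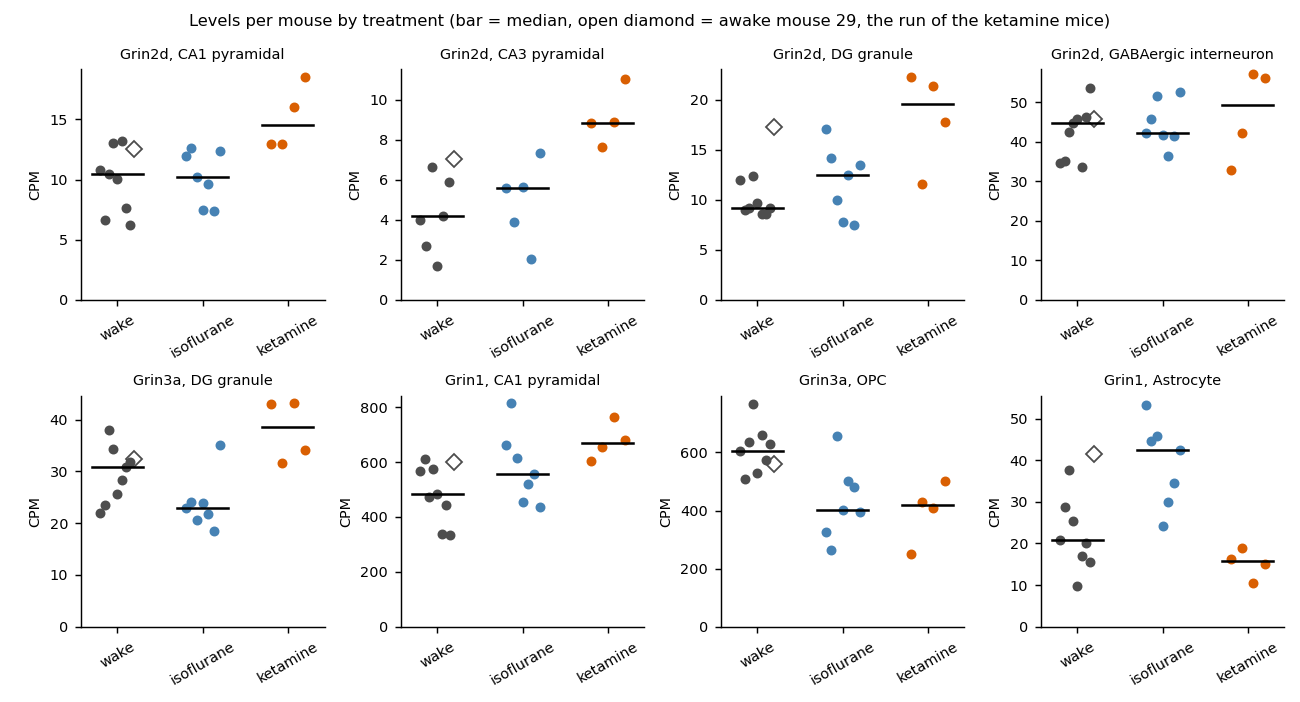
Level per mouse (CPM) by treatment for selected gene-class pairs, with a bar at the median and an open diamond for awake mouse 29, which shares the run of the ketamine mice. Grin2d in DG is 11.5 to 22.3 CPM under ketamine, and mouse 29, at 17.3 CPM, lies among these values.

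Between ketamine and isoflurane 1 pair was higher and 1 lower under ketamine, where 6.34% of all pairs were called. Grin3a in DG was 42.9, 31.7, 43.3 and 34.0 CPM under ketamine and 18.6 to 35.2 CPM (median 22.9) under isoflurane, with overlap, a log2 difference of 0.71 (SE 0.17, adjusted p = 0.0323) in edgeR. With the runs as a block it was 0.49 (SE 0.35, adjusted p = 0.870); the adjusted p was 0.00902 to 0.870 over 33 alternatives, and leaving out any one of mice 15, 18, 25, 27 or 28 ended the call. Grin1 in astrocytes was 16.3, 18.9, 10.4 and 15.2 CPM under ketamine, below every isoflurane mouse, a difference of -1.38 (SE 0.34, adjusted p = 0.0176). Awake mouse 29, of the same run, had the highest awake value, 41.4 CPM, against 9.82 to 37.7 in the other awake mice. That run holds no isoflurane mouse, so that with the runs as a block ketamine and isoflurane are linked through mouse 29 alone. With the block the difference from isoflurane was -2.69 (SE 0.46, adjusted p = 0.0288), the one pair called, where 0.0077% of all pairs were called. It missed the threshold with doublets kept, at -0.45 (SE 0.23, adjusted p = 0.221), or with a marker gate per nucleus, at -0.47 (SE 0.46, adjusted p = 0.542). The adjusted p was 0.00418 to 0.542 over 33 alternatives, and leaving out any one of mice 25, 26, 27 or 28 ended the call. The medians of the neuronal genes in the astrocyte sums, given above, were also lower under ketamine, and their part in this result was not tested.

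Between libraries labelled APP/PS1 and WT, edgeR called 0 of the 43 pairs, where 0% of all pairs were called, and DESeq2 called 0. Prnp, used above to check the genotype labels, was thus not called by edgeR in any of the 10 classes either. Of the 43 pairs, 4 had an unadjusted p under 0.05. The share of all pairs at that threshold is not given here, and the number and direction of these 4 pairs are not read as a result. They were Grin2a in oligodendrocytes, at 0.71 (SE 0.28, adjusted p = 1.00), in astrocytes, at 0.60 (SE 0.25, adjusted p = 1.00), and in OPC, at 0.98 (SE 0.42, adjusted p = 1.00), and Grin2b in fibroblasts, at 0.91 (SE 0.43, adjusted p = 1.00). Without the 4 mice whose Prnp goes against the label the count was also 0, with 2 pairs at an unadjusted p under 0.05. In CA1 the genotypes overlapped, with Grin1 at 335 to 766 CPM (median 568, n = 11) in WT and 436 to 816 CPM (median 605, n = 9) in APP/PS1, a difference of -0.04 (SE 0.15, adjusted p = 1.00). Grin2a stood there at 1681 to 5279 CPM (median 4637, n = 11) and 2153 to 5102 CPM (median 4223, n = 9), a difference of 0.03 (SE 0.19, adjusted p = 1.00). These differences weight the treatments equally, so that their signs need not follow the medians.

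The interaction of genotype with isoflurane gave 0 calls in edgeR and in DESeq2 (background 0%), and that with ketamine 0 calls in both (background 0.000962%), each with 0 pairs at an unadjusted p under 0.05. Within WT mice isoflurane (3 mice against 6 awake) gave 0 edgeR calls (background 0.531%), with a smallest adjusted p of 0.151. An unadjusted p under 0.05 was found for 12 of the 43 pairs, a larger share than the 11.6% of all pairs. Within APP/PS1 mice isoflurane (4 against 3 awake) gave 0 edgeR calls (background 0.377%), with a smallest adjusted p of 0.321. There 2 of the 43 pairs had such an unadjusted p, a smaller share than the 9.01% of all pairs. The group sizes differ between genotypes, and these shares are description only.

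**Figure D4:**
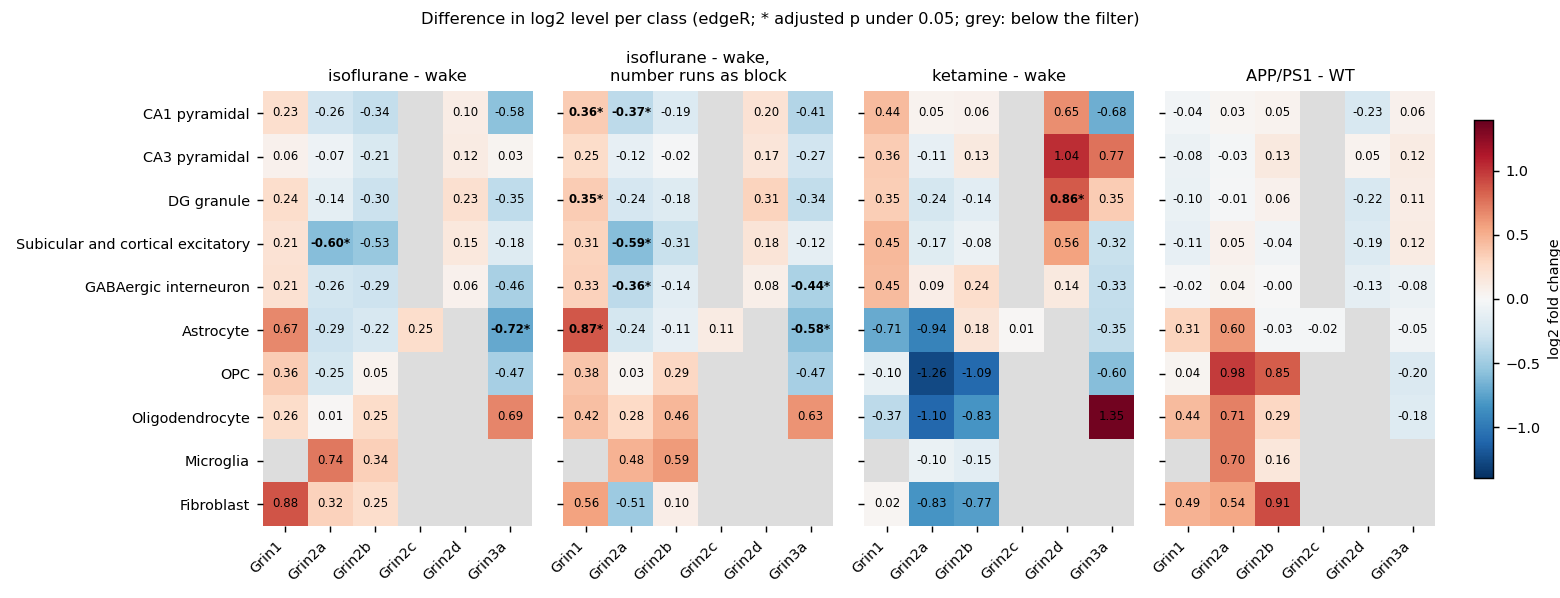
Log2 differences per gene and class for isoflurane, isoflurane with the runs as a block, ketamine and genotype, with an asterisk where the edgeR adjusted p is under 0.05 and grey where the gene did not pass the filter. Isoflurane has 2 calls without and 8 with the block, ketamine 1, and genotype 0.

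The balance of Grin2a to Grin2b, which shifts during development, was compared as the log2 ratio of their UMIs within each mouse, which does not depend on scaling. In CA1 the ratio was 0.89 ± 0.36 (SD, n = 9) awake, 0.90 ± 0.56 (n = 7) under isoflurane and 0.90 ± 0.08 (n = 4) under ketamine. The difference was 0.0125 for isoflurane (two-sided exact permutation p = 0.958), 0.00377 for ketamine (exact permutation p = 0.986) and 0.0307 for APP/PS1 against WT (exact permutation p = 0.868). Of 30 such tests over 10 classes none had an adjusted p under 0.05. The smallest p was that of astrocytes under ketamine, -3.30 ± 0.29 against -2.38 ± 0.68 awake (exact permutation p = 0.0364, adjusted p = 0.787). Awake mouse 29 had -3.58 there, below 3 of the 4 ketamine mice (-2.93, -3.31, -3.63 and -3.33). Compared within runs, the difference under isoflurane was -0.224 in interneurons, lower in 4 of 4 runs (exact permutation p = 0.0278, adjusted p = 0.278 over 10 classes). The classes lay further apart. Among the mice with enough nuclei of a class, the ratio was 1.01 to 2.67 in Lamp5 interneurons and -4.32 to -1.32 in Vip interneurons.

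**Figure D5:**
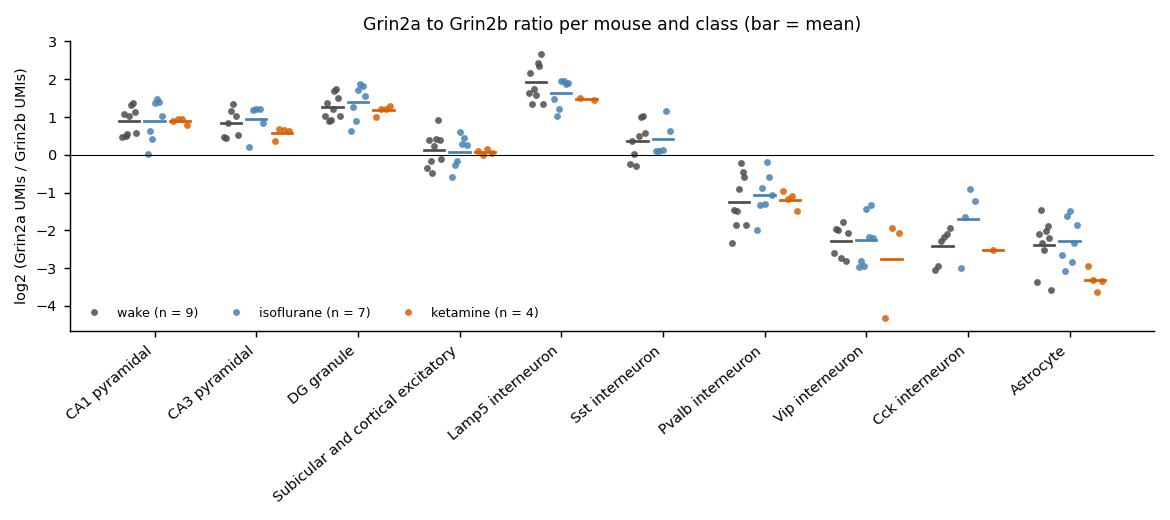
Log2 ratio of Grin2a to Grin2b UMIs per mouse by class and treatment, with a bar at the mean. In CA1 the means are 0.89 awake, 0.90 under isoflurane and 0.90 under ketamine, and the treatments overlap.

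Genes that work with the receptor were followed in 4 lists. The lists were chosen with earlier results of these data known, so that their shares of calls are description only. Of 178 gene-class pairs of the scaffold list, which also holds signalling genes such as Nrg1 and Reln, isoflurane raised 1 and lowered 13. This is 7.87% called where 3.48% of all pairs were. The subicular and cortical class held 8 of the lowered pairs and CA1 held 4, with 0 called in CA3, DG and interneurons. The median log2 fold change of the list was -0.39 in the subicular class and -0.26 in CA1. It was also negative in CA3 (-0.22), DG (-0.16) and interneurons (-0.16), where that of all genes was 0.001 to 0.013 over these classes. In the other classes tested the list median was -0.08 to 0.17. These medians were not tested. The share of all pairs called within single classes is not given here. Homer1, an adaptor of the postsynaptic density, fell in the subicular and cortical class. It had 169 to 970.2 CPM (median 305) awake and 58.0 to 121 CPM (median 84.5) under isoflurane, without overlap, a log2 fold change of -2.28, SE 0.32, adjusted p = 0.000298 in edgeR. Ephb2, a receptor kinase that binds NMDA receptors, fell in CA1, with 57.0 to 80.5 CPM (median 65.1) awake and 35.0 to 47.0 CPM (median 38.7) under isoflurane, without overlap (-0.77, SE 0.09, adjusted p = 0.000208), and rose in oligodendrocytes (2.35, SE 0.38, adjusted p = 0.000709). Dlgap1 (-0.82) and Neto1 (-1.17) in the subicular class and Dlgap3 in CA1 (-0.57) fell as well. Of the 14 scaffold calls, 13 were also made with the runs as a block.

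Among kinases and phosphatases isoflurane raised 2 of 200 pairs and lowered 6, 4.00% in all and near the share of all pairs called. Prkca, a protein kinase C, rose in astrocytes, with 366 to 598 CPM (median 425) awake and 500.4 to 1532 CPM (median 1390) under isoflurane, a log2 fold change of 1.36, SE 0.19, adjusted p = 0.00018, and Ppp1r9b, a phosphatase-targeting protein, rose there as well (0.76). Of 130 pairs of trafficking genes 1 rose, Kif17 in interneurons (0.63, SE 0.15, adjusted p = 0.0232), a motor that carries GluN2B, and 4 fell, 3.85% in all. Of 102 pairs of genes that supply the co-agonists or clear glutamate 2 rose, among them Glul, glutamine synthetase, in oligodendrocytes (0.82, SE 0.16, adjusted p = 0.00361), and 1 fell, 2.94% in all. The trafficking and co-agonist shares were also near that of all pairs. Blocked by runs, 8 of 8 kinase, 5 of 5 trafficking and 2 of 3 co-agonist calls remained.

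Under ketamine, where 7.59% of all pairs were called, the calls were 3 higher and 14 lower (9.55% called) of 178 scaffold pairs and 12 higher and 3 lower (7.50% called) of 200 kinase pairs. They were 2 higher and 11 lower (10.0% called) of 130 trafficking pairs and 3 higher and 16 lower (18.6% called) of 102 co-agonist pairs. With the runs as a block 1 of these was still called. It was Lin7a in CA1, part of the complex that carries the receptor, with 81.5 to 152 CPM (median 106) awake and 34.8 to 63.1 CPM (median 40.6) under ketamine, a change of -1.38, SE 0.22, adjusted p = 0.00129, and -1.74 with the block (SE 0.23, adjusted p = 0.000952). Without the block Homer1 fell in CA1 (-1.35), CA3 (-0.97) and the subicular class (-2.09) and rose in oligodendrocytes (0.78), and Camk2a, a kinase bound by GluN2B, rose in interneurons (0.79). Against isoflurane, where 6.34% of all pairs were called, the counts under ketamine were 7 higher and 2 lower (5.06% called), 12 higher and 8 lower (10.0% called), 3 higher and 5 lower (6.15% called) and 1 higher and 4 lower (4.90% called) in the same order of lists. Blocked by runs, 0 of 9, 0 of 20, 1 of 8 and 0 of 5 of these calls remained. Between genotypes edgeR called 0 in each.

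Srr, the enzyme that makes D-serine and a gene named here after its values were seen, was called lower under ketamine in 6 of the 10 classes. Srr alone thus gave 6 of the 16 lower co-agonist calls above. In CA1 it was 28.7 to 65.6 CPM under ketamine (median 50.5) and 61.5 to 115 awake (median 91.4), a log2 fold change of -0.96 (SE 0.20, adjusted p = 0.00714). With the runs as a block the change in CA1 was -0.84 (SE 0.29, adjusted p = 0.306). In fibroblasts the change was -1.85 (SE 0.43) without and -0.67 (SE 0.63) with the block. None of the 6 calls was made with the block.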

How the data were processed

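Single-nucleus counts of 20 hippocampus libraries were analysed. According to the file headers and the study's methods, the authors made the deposited count matrices (whole UMI counts per gene and barcode, not normalized) with Cell Ranger 5.0.0 on mm10, counting intronic reads; the strand setting is not given in the sources used here. The methods also name removal of free RNA, which the headers do not show, so that free RNA may remain in the sums. Nuclei with at least 200 genes were kept, doublets were called from simulated doublets and removed, and nuclei were clustered (30 components, 20 neighbours, leidenalg 0.10.2, resolution 1) without the genes reported on. Clusters were named from marker lists; the naming rules were set after the clusters' leading genes were seen. Of 50 clusters, 24 were named, 14 stayed unnamed and 12 were doublet clusters; nuclei of the last 2 kinds entered no class.

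UMIs were summed per mouse and class (at least 30 nuclei per mouse) and tested with edgeR 4.0.16 (TMM, quasi-likelihood, 1 model with all 6 groups, Benjamini-Hochberg adjustment over the genes of a class, threshold 0.05). Levels in classes that were not tested, the interneuron sub-classes among them, took mice with at least 10 nuclei. The fewest in a mouse were 10 in Sst, 13 in Cck, 23 in Lamp5 and 23 in Vip. Ratios kept the floor of 30 nuclei. Ratios (0.5 UMIs added) were tested by exact permutation. Alternatives included DESeq2 1.42.0, other filters and classes, blocks and left-out mice; the fits without mice 11, 14, 17 and 20 and the within-run ratios were added after seeing the data. The genes and lists were chosen with earlier results of these data known. List genes were named when called, at most 5 per direction and contrast by adjusted p. The mouse is the replicate. A mouse with too few nuclei of a class was left out of that class.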

Additional observations from a re-analysis of the deposited data

Results flagged for a closer look

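Of 76 groups of 4 to 6 mice tested for a single distant value, 6 had one, where chance gives about 1 in 20. In astrocytes, isoflurane-treated APP/PS1 mouse 15 had 24.3 CPM of Grin1 and the others of its group 42.5 to 45.8. Also in astrocytes, awake WT mouse 19 had 458 CPM of Grin2c against 194 to 275. Awake WT mouse 12 stood apart in fibroblasts with 629 CPM of Grin2b against 129 to 166, and with 1167 CPM of Grin2a against 125 to 405. In oligodendrocytes the same mouse had 0 CPM of Grin3a against 9.12 to 14.5, but its sum held only 96323 UMIs, where a count of 0 allows up to 29.4 CPM (3 counts), so that no difference was detectable at this depth. In the subicular and cortical class, isoflurane-treated APP/PS1 mouse 4 had 617 CPM of Grin2a against 1035 to 1102, and without this mouse the isoflurane call of that pair was lost.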

How the results depend on the processing

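The number of isoflurane pairs called was 2, and became 8 with the runs as a block, 4 with a block of mice 1 to 4, 0 without mice 12, 13 and 20, 1 without mice 11, 14, 17 and 20 (chosen after seeing the data), 0 with doublets kept, 1 with finer clusters, 1 with a marker gate, 1 with only the groups compared, and 0 to 5 leaving out 1 mouse. The ketamine count of 1 became 4 with no filter on low counts, 0 with the runs as a block, 8 with a block of mice 1 to 4, 2 without mice 1 to 4, 0 without mice 12, 13 and 20, 0 without mice 11, 14, 17 and 20, 0 with the gate, 2 with only the groups compared, and 0 to 1 leaving out 1 mouse. The ketamine against isoflurane count of 2 became 4 scaled by library size, 1 with the runs as a block, 1 without mice 1 to 4, 0 with the gate, 1 with only the groups compared, and 0 to 2 leaving out 1 mouse. For isoflurane, DESeq2 and edgeR with no filter on low counts each called 3 pairs, all lower. With no filter, ketamine against isoflurane had 3 pairs lower and 0 higher. Genotype and both interactions stayed at 0 under each setting run. The CA1 ratio difference under isoflurane changed sign without mice 12, 13 and 20 (-0.0362) and within runs (-0.142), and was -0.0827 to 0.160 leaving out 1 mouse. For ketamine it changed sign without mice 1 to 4 (-0.0305), without mice 12, 13 and 20 (-0.0259), with doublets kept (-0.000558) and with finer clusters (-0.00306), and was -0.0487 to 0.0633 leaving out 1 mouse. For APP/PS1 it changed sign without mice 1 to 4 (-0.0917) and without mice 12, 13 and 20 (-0.00354), and was -0.0558 to 0.0916 leaving out 1 mouse. The cause was not tested. Scaling by library size alone in place of TMM moved the median log2 fold change of all genes by over 0.1 in 1 of 10 classes for isoflurane (the subicular class, by 0.12), 2 for ketamine and 7 for ketamine against isoflurane (astrocytes by -0.11 and DG by -0.12). The highest class of each gene was the same under the gate for 6 of 7 genes, Grin3b being the exception. Depth limits Grin3b, with 178 UMIs, and the glial sums, and 4 ketamine mice limit every ketamine comparison.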
